A study of Mus musculus with 6 samples.

Results

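Collagens are the main structural proteins of the extracellular matrix, and the 44 genes described here encode their α chains. They were the rows of the count table whose gene symbol is Col, a type number, the letter a and a chain number, and they made up 44 of 21878 rows. Of these chains, 11 form fibrils, 6 form the type IV network of basement membranes, and 27 belong to other types. The libraries came from whole prefrontal cortex of 6 mice, without sorting of cells. The Gls1_CamkIIaCre group held 3 mice with CamKIIα-Cre and one floxed Gls1 allele (CamKIIαCre;Gls1+/flox), in which Cre removes that allele only in part of the brain's cells. The control group held 3 littermates with CamKIIα-Cre and no floxed allele (CamKIIαCre;Gls1+/+), so Cre was present in both groups. The genotype label of the control mice reads WT. Gls1 encodes glutaminase, which makes glutamate from glutamine. The CamKIIα promoter drives Cre in excitatory neurons of the forebrain, a cell type that is not known as a main source of type I, III or IV collagen. Homozygous floxed animals with Cre did not survive, per the series description, and the age and sex of the mice are not given in the labels.

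Collagen α chains wind in threes into a triple helix, and the combination of chains defines the collagen type. In the brain, the fibrillar types I and III are made mainly by fibroblasts of the meninges and around larger vessels. Type IV collagen is laid down by endothelial and mural cells (pericytes and smooth muscle) in the vessel basement membrane. Some non-fibrillar chains, among them Col19a1 and Col25a1, are known to be expressed by neurons. In bulk tissue, fewer cells of a type and less RNA per cell cannot be told apart.

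Library totals lay between 17987807 and 19330961 counts. Levels are given as CPM normalised by TMM, that is, counts adjusted for the depth and composition of each library, with the 3 Gls1_CamkIIaCre libraries before the 3 control libraries, each in the order of their replicate numbers. A gene was called when its Benjamini-Hochberg adjusted p in edgeR's quasi-likelihood test, taken over all 14440 genes tested, was under 0.05. The dissected tissue differed between the groups in other ways. Markers of striatal neurons summed to 314, 331 and 363 CPM in Gls1_CamkIIaCre cortex, against 795, 1327 and 911 CPM in control cortex. Of these markers, 10 of 12 were called lower, against 4.29% of all tested genes. The part of the striatal markers in the collagen results was not tested.

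Collagen transcripts were lower or not distinguishable in Gls1_CamkIIaCre cortex, and no chain was called higher. Of 43 chains tested, 7 fell: the fibrillar chains Col1a1, Col1a2 and Col5a2, the type IV chain Col4a2, and Col9a2, Col15a1 and Col18a1 among the others. That is 16.3% of the tested chains, while 8.24% of all tested genes were called in either direction, 4.29% lower and 3.95% higher. With upper-quartile factors in place of TMM, 5.19% of all genes were called lower and 2.97% higher, and the same 7 chains were called. The median log2 fold change (Gls1_CamkIIaCre over control) was -0.06 over the 43 chains, 27 of which were negative, and -0.0024 over all tested genes. At an unadjusted p under 0.05 stood 12 chains, of which Col4a3 and Col23a1 were on the higher side. DESeq2 called Col1a1, Col1a2, Col4a2 and Col18a1, and limma voom called these and Col15a1, with 0 chains higher by either tool. DESeq2 called 2.95% of all genes lower and limma voom 3.73%. With single libraries left out, between 2 and 5 chains were called, fewest without Gls1_CamkIIaCre replicate 2, where calls over all genes also fell to 2.85% (1.49% lower). CPM did not overlap between the groups for 9 chains that were lower and 5 that were higher, against 13.6% and 13.1% of all tested genes. The chain not tested, Col10a1, had 7, 2 and 0 counts in Gls1_CamkIIaCre libraries and 1, 7 and 9 counts in control libraries.

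**Figure D1:**
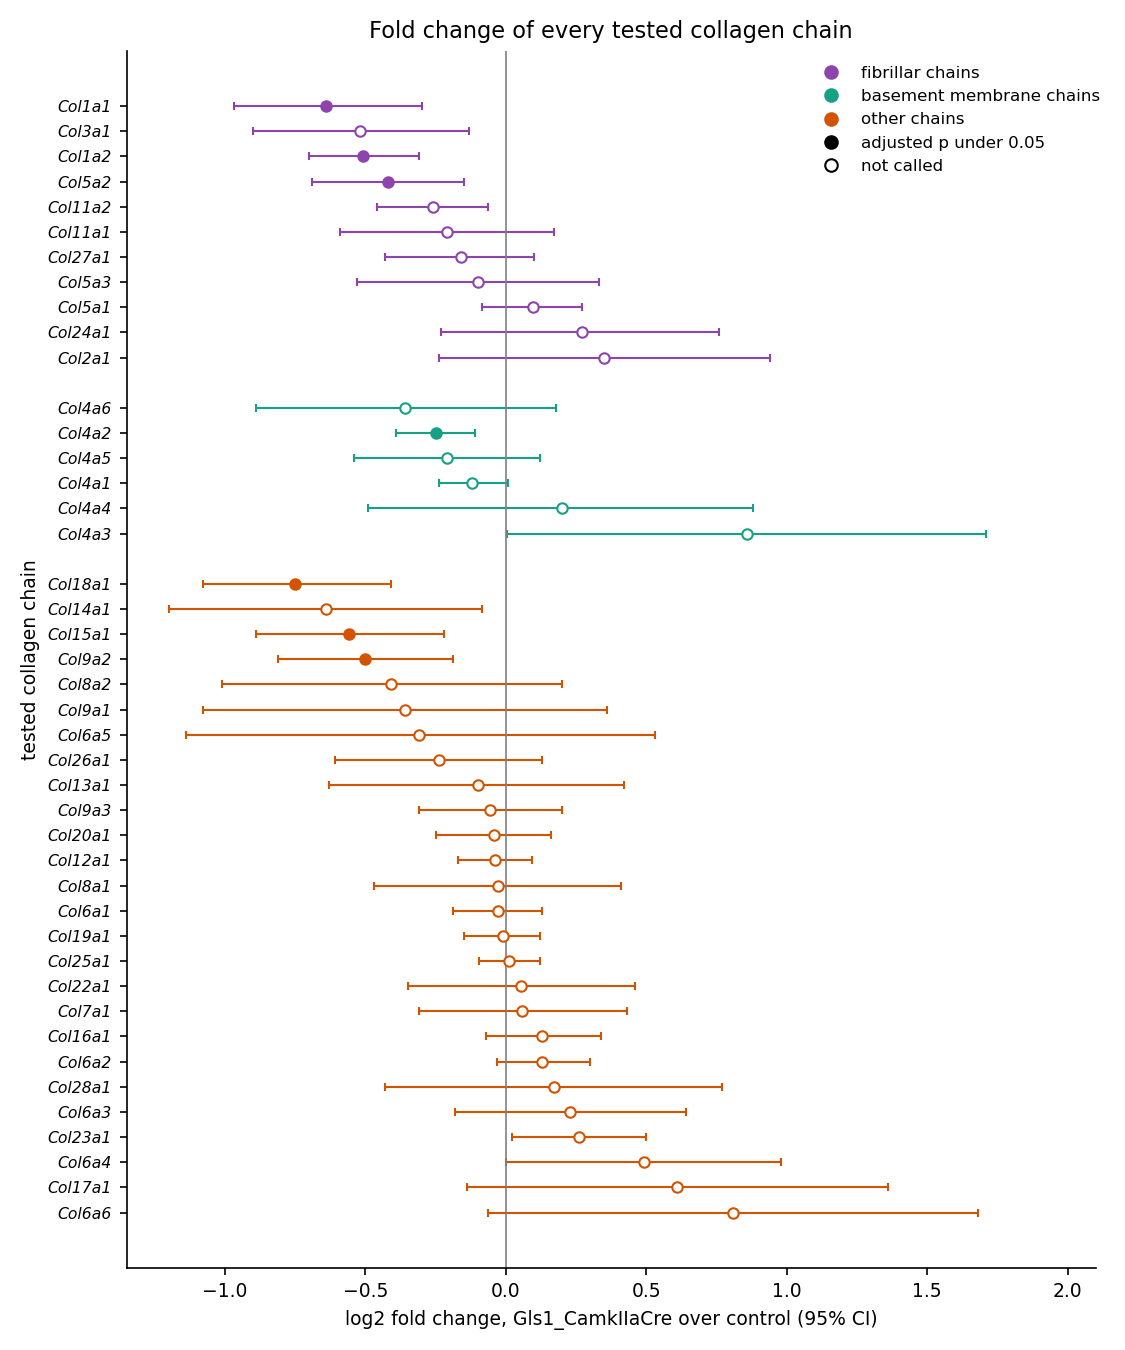
Log2 fold change of the 43 tested collagen chains, Gls1_CamkIIaCre over control, on the x axis, with 95% confidence intervals from edgeR, one chain per line and chains grouped by class. Filled points mark the 7 chains with an adjusted p under 0.05, all of which lie left of 0.

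The promoters of Col1a2 and Col18a1 are shown because these were the chains still called when each library was left out in turn. Each run is the 250 bases before an annotated start, from RefSeq on GRCm38.p6, written 5′ to 3′ along the gene's strand. Capitals mark CCAAT or its reverse complement ATTGG. The Col1a2 window lies on the plus strand at chr6:4505368-4505617 and holds CCAAT beginning 109 bases before the start, at position -109. The Col18a1 windows belong to different starts of that gene and lie on the minus strand at chr10:77166531-77166780, with ATTGG at position -210, and at chr10:77113706-77113955, with neither motif.
Col1a2: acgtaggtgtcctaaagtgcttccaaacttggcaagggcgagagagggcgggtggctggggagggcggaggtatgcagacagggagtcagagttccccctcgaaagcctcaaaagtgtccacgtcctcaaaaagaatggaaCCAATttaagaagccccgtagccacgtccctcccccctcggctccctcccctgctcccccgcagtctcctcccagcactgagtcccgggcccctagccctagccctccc
Col18a1, upstream start: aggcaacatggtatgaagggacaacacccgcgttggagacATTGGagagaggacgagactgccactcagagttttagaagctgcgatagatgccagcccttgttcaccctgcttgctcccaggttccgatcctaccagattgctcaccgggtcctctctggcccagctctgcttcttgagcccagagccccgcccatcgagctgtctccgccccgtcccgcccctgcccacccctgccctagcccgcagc
Col18a1, internal start: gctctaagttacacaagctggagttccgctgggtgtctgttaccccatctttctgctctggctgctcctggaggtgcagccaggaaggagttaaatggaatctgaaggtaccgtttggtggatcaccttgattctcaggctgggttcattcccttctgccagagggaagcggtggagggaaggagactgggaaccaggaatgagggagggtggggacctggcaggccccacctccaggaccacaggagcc
Windows were found for 35 of the 44 chains, 38 windows in all. CCAAT on either strand occurred in 34.2% of these collagen windows and in 33.8% of 32851 windows of all genes. GGGCGG on either strand, the core of the GC box, occurred in 57.9% of collagen windows and 32.7% of all windows, and TATAAA in 13.2% and 12.4%. Of the 6 windows of called chains, 3 held CCAAT, 4 held GGGCGG and 0 held TATAAA. A match describes letters in the window and is not evidence of a bound site.

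Levels between chains were compared in the deposited FPKM, which scale counts by gene length. By mean FPKM over the 6 libraries, 16 chains lay above 1, 22 between 0.1 and 1, and 6 under 0.1. Col6a1, a chain of the beaded filaments of type VI collagen, had by far the highest level, with 18.2 ± 2.09 FPKM in Gls1_CamkIIaCre cortex and 19.3 ± 1.01 FPKM in control cortex (SD, n = 3 each). It made up 29.7% of the summed collagen FPKM in Gls1_CamkIIaCre cortex and 28.3% in control cortex. Its partners in the same molecule were lower, Col6a2 at 2.47 ± 0.294 and 2.35 ± 0.0651 FPKM and Col6a3 at 0.219 ± 0.0191 and 0.182 ± 0.021 FPKM, in Gls1_CamkIIaCre and control cortex. Col25a1 came next, at 6.17 ± 0.25 FPKM in Gls1_CamkIIaCre cortex and 6.19 ± 0.23 FPKM in control cortex. It was followed by Col4a2 at 4.35 ± 0.181 and 5.48 ± 0.429 FPKM, in the same order of groups, and Col4a1 at 3.46 ± 0.148 and 3.97 ± 0.241 FPKM. Fibrillar chains held 16.3% of the summed collagen FPKM in Gls1_CamkIIaCre cortex and 18.2% in control cortex, type IV chains 13.8% and 14.9%, and the other chains 69.9% and 66.9%. FPKM summed over all genes were themselves lower in Gls1_CamkIIaCre libraries, 238924 to 243144, than in control libraries, 249602 to 252272, so tests used the counts.

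**Figure D2:**
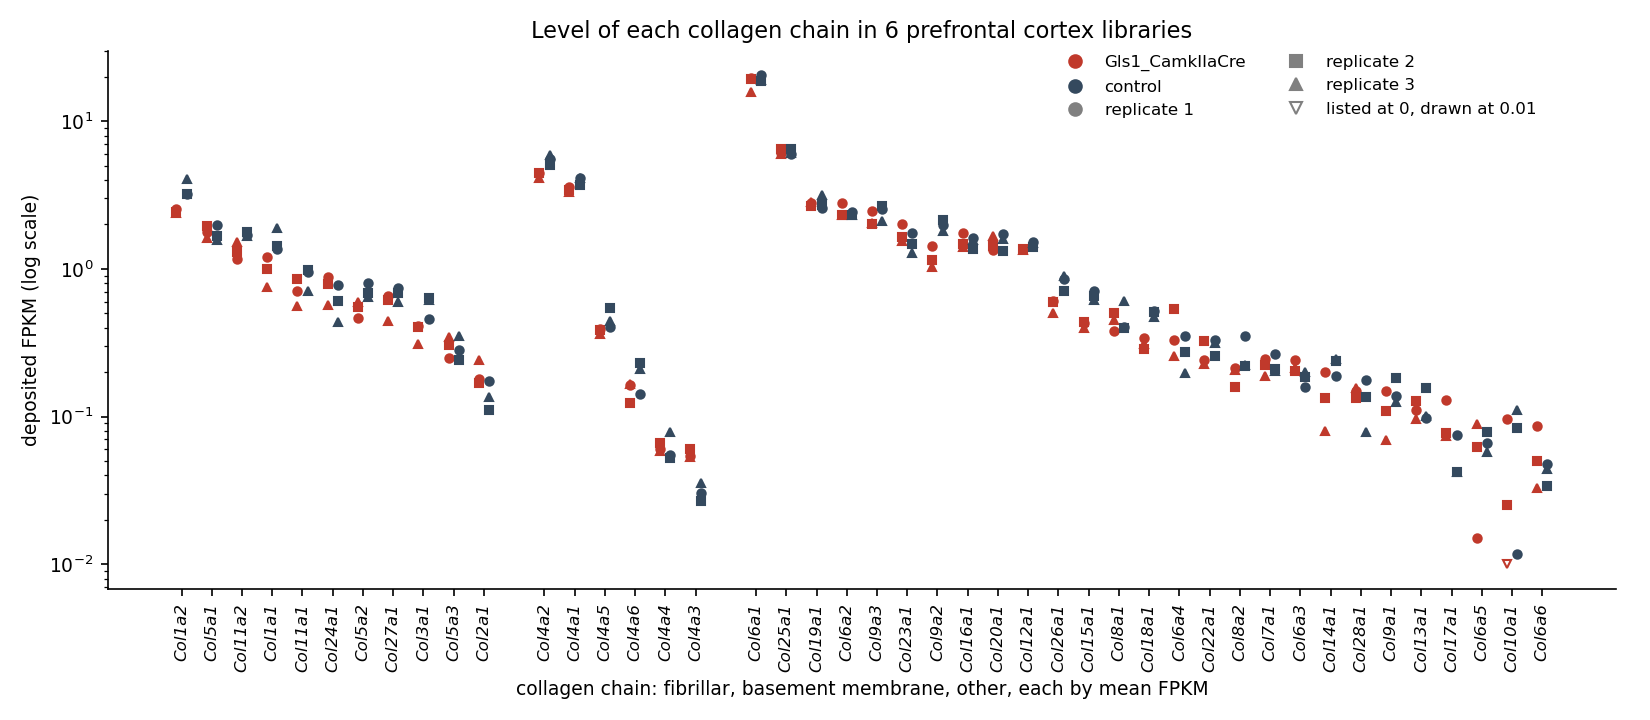
Deposited FPKM (log scale, y axis) of each of the 44 collagen chains in the 3 Gls1_CamkIIaCre and 3 control libraries, with chains ordered by class and mean level and marker shapes for replicates. Col6a1 stands highest, between 15.8 and 20.5 FPKM, and most chains lie under 1.

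Among the 11 fibrillar chains, 3 fell and 0 rose, 27.3% called against 8.24% of all tested genes. Their median log2 fold change was -0.21. Type I collagen, the main fibril of meninges and adventitia, is built from Col1a1 and Col1a2. Col1a2 had 15.7, 15.3 and 14.9 CPM in Gls1_CamkIIaCre cortex and 19.8, 20.3 and 25.2 CPM in control cortex. Every Gls1_CamkIIaCre library lay below every control library, and control replicate 3 was the highest. Col1a2 fell by 29.6% (log2 fold change -0.51 ± 0.09 SE, adjusted p = 0.0024), and the gene lies at chr6:4505618-4541543. Col1a1 had 7.76, 6.63 and 5.22 CPM in Gls1_CamkIIaCre cortex and 8.83, 9.17 and 12.5 CPM in control cortex. The groups did not overlap, and control replicate 3 again stood highest. Col1a1 fell by 35.7% (log2 fold change -0.64 ± 0.16 SE, edgeR adjusted p = 0.0189), at chr11:94936224-94953042. Its call was lost without control replicate 3 (adjusted p = 0.0753), Gls1_CamkIIaCre replicate 2 (0.091) or Gls1_CamkIIaCre replicate 3 (0.0694).

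Types III and V form fibrils together with type I. Col5a2, a chain of type V collagen, which starts and limits fibril growth, had 5.94, 5.96 and 6.27 CPM in Gls1_CamkIIaCre cortex and 8.88, 7.49 and 7.96 CPM in control cortex. The groups were apart, and Col5a2 fell by 25.3% (log2 fold change -0.42 ± 0.13 SE, edgeR adjusted p = 0.0485), at chr1:45374331-45503282. This call was close to the threshold and was lost without any one of the 6 libraries (adjusted p between 0.0711 and 0.192). Its partner Col5a1 had 21.7, 23.2 and 20.5 CPM in Gls1_CamkIIaCre cortex and 22.8, 20 and 18.4 CPM in control cortex, with overlapping groups and a log2 fold change of 0.095 (95% confidence interval -0.085 to 0.27). Col3a1, the sole chain of type III collagen, lies 24624 bases from Col5a2. It had 3.75, 3.4 and 2.69 CPM in Gls1_CamkIIaCre cortex and 3.93, 5.19 and 4.95 CPM in control cortex, without overlap, and missed the threshold (log2 fold change -0.52, interval -0.90 to -0.13, edgeR adjusted p = 0.0937). Col11a2, a chain of type XI collagen, known best from cartilage, had 12.9, 15.2 and 16.7 CPM in Gls1_CamkIIaCre cortex and 17.7, 18.3 and 17.7 CPM in control cortex, and also missed it (log2 fold change -0.26, interval -0.46 to -0.062, edgeR adjusted p = 0.0987). Without Gls1_CamkIIaCre replicate 3 it was called (log2 fold change -0.35, edgeR adjusted p = 0.045), and without Gls1_CamkIIaCre replicate 1 its log2 fold change was -0.16 (edgeR adjusted p = 0.368). The remaining fibrillar chains, Col2a1, Col5a3, Col11a1, Col24a1 and Col27a1, had log2 fold changes between -0.21 and 0.35, and none was called.

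**Figure D3:**
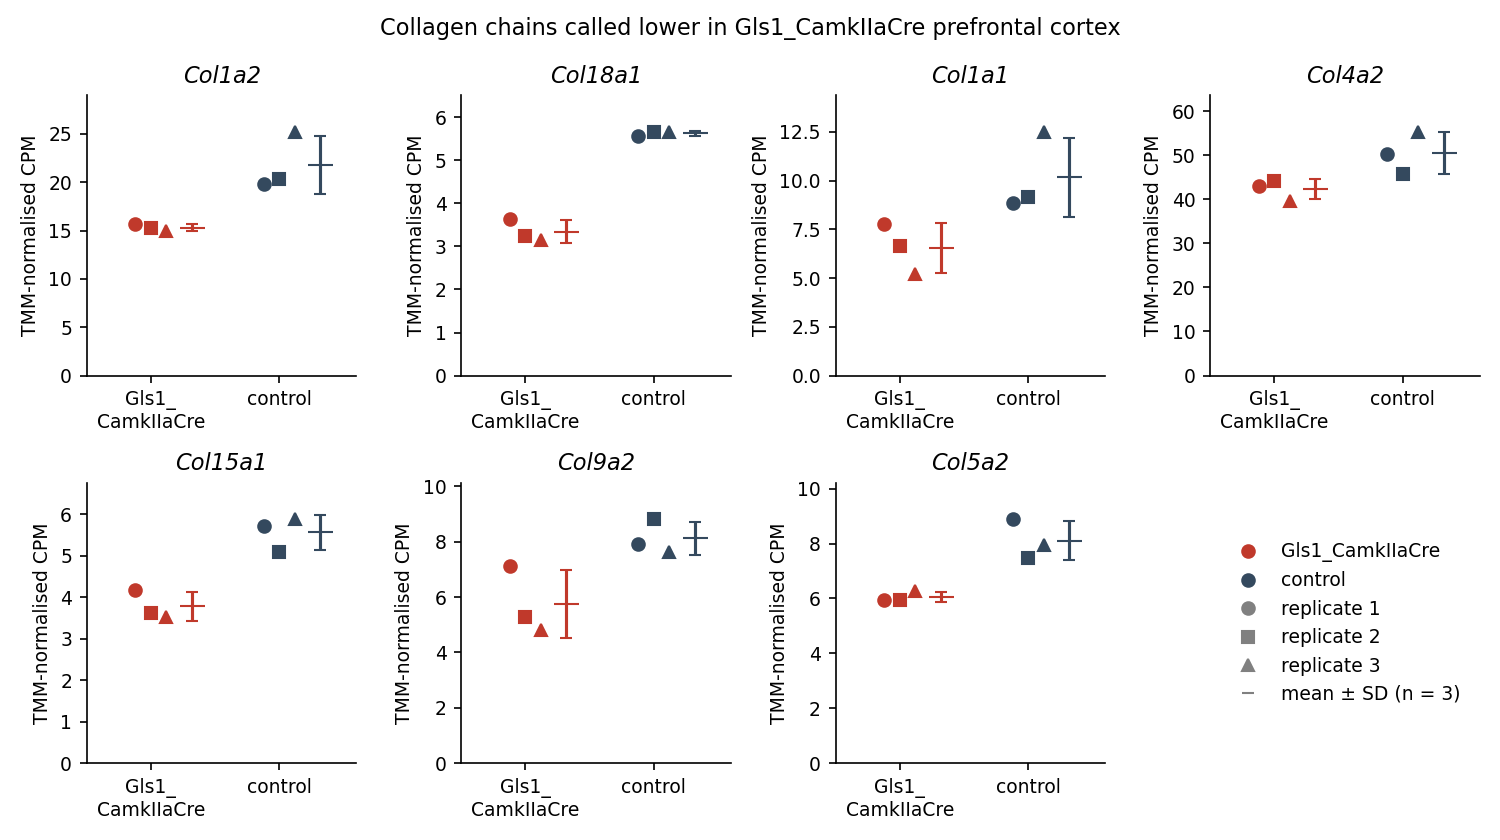
TMM-normalised CPM of the 7 called collagen chains in each library (points) with the mean and SD of each group (n = 3), Gls1_CamkIIaCre left of control, and every axis starting at 0. In each panel the 3 Gls1_CamkIIaCre libraries lie below the 3 control libraries, and for Col4a2 the nearest libraries of the groups stand at 44.2 CPM and 45.8 CPM.

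Among the 6 type IV chains, 1 fell and 0 rose, 16.7% called against 8.24% of all tested genes. Their median log2 fold change was -0.16. The network of most basement membranes, brain vessels included, is built from Col4a1 and Col4a2. Col4a2 had 43.1, 44.2 and 39.7 CPM in Gls1_CamkIIaCre cortex and 50.3, 45.8 and 55.3 CPM in control cortex. The groups did not overlap, although Gls1_CamkIIaCre replicate 2 lay close to control replicate 2. Col4a2 fell by 16.1% (log2 fold change -0.25 ± 0.07 SE, edgeR adjusted p = 0.0235), at chr8:11312805-11449287. The call was lost when any library other than control replicate 2 was left out (adjusted p between 0.0583 and 0.106). Col4a1 had 45.3, 44 and 42.3 CPM in Gls1_CamkIIaCre cortex and 48.1, 44.5 and 49.9 CPM in control cortex. Gls1_CamkIIaCre replicate 1 lay above control replicate 2, and Col4a1 was not called (log2 fold change -0.12, interval -0.24 to 0.007, edgeR adjusted p = 0.258). These genes lie head to head and their annotated spans share 85 bases at chr8:11312805-11312889. Whether counting used strand is not given in the sources used here, so reads in the shared stretch cannot be told apart.

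The other type IV pairs are known from specialised membranes such as those of kidney and smooth muscle. Col4a3, Col4a4 and Col4a6 were sparse here, with 72, 129 and 227 counts over all 6 libraries, and Col4a5 had 578. Col4a3 had 0.803, 0.947 and 0.738 CPM in Gls1_CamkIIaCre cortex and 0.408, 0.419 and 0.538 CPM in control cortex. The groups did not overlap, but the gene had only 72 counts over all 6 libraries and was not called (log2 fold change 0.86, interval 0.0026 to 1.71, edgeR adjusted p = 0.221). Its neighbour Col4a4, whose span shares 114 bases with it, had 0.91, 1.11 and 1.63 CPM in Gls1_CamkIIaCre cortex and 0.97, 0.943 and 1.29 CPM in control cortex, with overlap (log2 fold change 0.20). Col4a5 had 4.98, 4.68 and 4.59 CPM in Gls1_CamkIIaCre cortex and 4.64, 6.39 and 5.44 CPM in control cortex (log2 fold change -0.21, edgeR adjusted p = 0.486). Col4a6 had 1.82, 1.5 and 1.95 CPM in Gls1_CamkIIaCre cortex and 1.68, 2.57 and 2.53 CPM in control cortex (log2 fold change -0.36, edgeR adjusted p = 0.45). Groups overlapped for both X-linked chains.

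Among the 26 tested chains of other types, 3 fell and 0 rose, with a median log2 fold change of -0.028. That is 11.5% called, near the 8.24% of all tested genes. Both multiplexins, collagens anchored at the outer face of basement membranes, were among the 3 that fell. Col18a1, whose C-terminal fragment is endostatin, had 3.64, 3.23 and 3.16 CPM in Gls1_CamkIIaCre cortex and 5.56, 5.66 and 5.65 CPM in control cortex. The gap between the groups was wider than the range within either. Col18a1 fell by 40.5% (log2 fold change -0.75 ± 0.16 SE, edgeR adjusted p = 0.00658), at chr10:77052178-77166530. Col15a1 had 4.18, 3.62 and 3.53 CPM in Gls1_CamkIIaCre cortex and 5.72, 5.08 and 5.87 CPM in control cortex, without overlap. It fell by 32% (log2 fold change -0.56 ± 0.16 SE, edgeR adjusted p = 0.0376), at chr4:47207655-47313167, and lost its call without Gls1_CamkIIaCre replicate 2 or 3 or without any one control library (adjusted p between 0.0556 and 0.127). Together the pair summed to 7.82, 6.85 and 6.7 CPM in Gls1_CamkIIaCre cortex and 11.3, 10.7 and 11.5 CPM in control cortex.

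Of 9 tested chains that sit on the surface of fibrils (the FACIT collagens), Col9a2 alone was called. That is 11.1%, near the 8.24% of all tested genes. Col9a2, a chain of type IX collagen, had 7.12, 5.29 and 4.8 CPM in Gls1_CamkIIaCre cortex and 7.91, 8.8 and 7.64 CPM in control cortex. Gls1_CamkIIaCre replicate 1 came near the control libraries, but the groups did not overlap. Col9a2 fell by 29.3% (log2 fold change -0.50 ± 0.15 SE, edgeR adjusted p = 0.0418), at chr4:121039566-121055325. It lost its call without Gls1_CamkIIaCre replicate 2 or 3 or control replicate 1 or 2 (adjusted p between 0.08 and 0.175), and its adjusted p was 0.0621 when the fit was corrected for GC content and the length of transcripts. Col14a1, a fibril-associated chain of connective tissue, had 2.36, 1.73 and 1.05 CPM in Gls1_CamkIIaCre cortex and 2.35, 2.72 and 2.96 CPM in control cortex. The groups met at replicate 1, and it was not called (log2 fold change -0.64, interval -1.20 to -0.086, edgeR adjusted p = 0.15). Its log2 fold change was -0.39 without Gls1_CamkIIaCre replicate 3 and -0.95 without Gls1_CamkIIaCre replicate 1.

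Col19a1 and Col25a1, which are known from neurons, and Col6a1, the most abundant chain, were measured precisely and did not differ beyond their error. Col19a1 had 49.9, 48.2 and 50.4 CPM in Gls1_CamkIIaCre cortex and 45.4, 48.7 and 55.8 CPM in control cortex (log2 fold change -0.012, interval -0.15 to 0.12). Col25a1, a transmembrane collagen, had 65.9, 70.7 and 67.5 CPM in Gls1_CamkIIaCre cortex and 65.2, 70.7 and 66.5 CPM in control cortex (log2 fold change 0.011, interval -0.095 to 0.12). Both intervals lie inside the size of the Col4a2 difference. Col6a1 had 121, 120 and 97.9 CPM in Gls1_CamkIIaCre cortex and 120, 112 and 113 CPM in control cortex, with Gls1_CamkIIaCre replicate 3 apart from the other 5 libraries (log2 fold change -0.027, interval -0.19 to 0.13). The largest log2 fold changes on the higher side in this class were 0.81 for Col6a6 and 0.61 for Col17a1, on 84 and 97 counts over all libraries, and neither was called.

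Chains that assemble into the same molecule were also compared as a ratio of counts within each library, for 9 pairs chosen after the values were seen. Such a ratio does not depend on library size. For 4 pairs the groups did not overlap, while CPM of 26.7% of all tested genes did not overlap in either direction. Col4a2, Col5a2 and Col9a2 had themselves been called lower, so the ratios that hold them are not separate from those calls. Col4a1 over Col4a2 was 1.05, 0.995 and 1.07 in Gls1_CamkIIaCre cortex and 0.957, 0.971 and 0.902 in control cortex. Col5a1 over Col5a2 was 3.65, 3.9 and 3.27 in Gls1_CamkIIaCre cortex and 2.57, 2.67 and 2.3 in control cortex. Col9a2 over Col9a3 was lower, at 0.723, 0.605 and 0.576 in Gls1_CamkIIaCre cortex and 0.824, 0.862 and 0.934 in control cortex. The Col9a3 span shares 237 bases with Tcfl5. The sparse pair Col4a3 over Col4a4 gave 0.882, 0.85 and 0.452 in Gls1_CamkIIaCre cortex and 0.421, 0.444 and 0.417 in control cortex. Each of these pairs had a two-sided exact permutation p of 0.1, the smallest that 3 against 3 libraries allow, and 0.225 after adjustment over the 9 pairs. The type I ratio, Col1a1 over Col1a2, was 0.493, 0.433 and 0.351 in Gls1_CamkIIaCre cortex and 0.447, 0.452 and 0.497 in control cortex, with overlap (exact permutation p = 0.4).

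**Figure D4:**
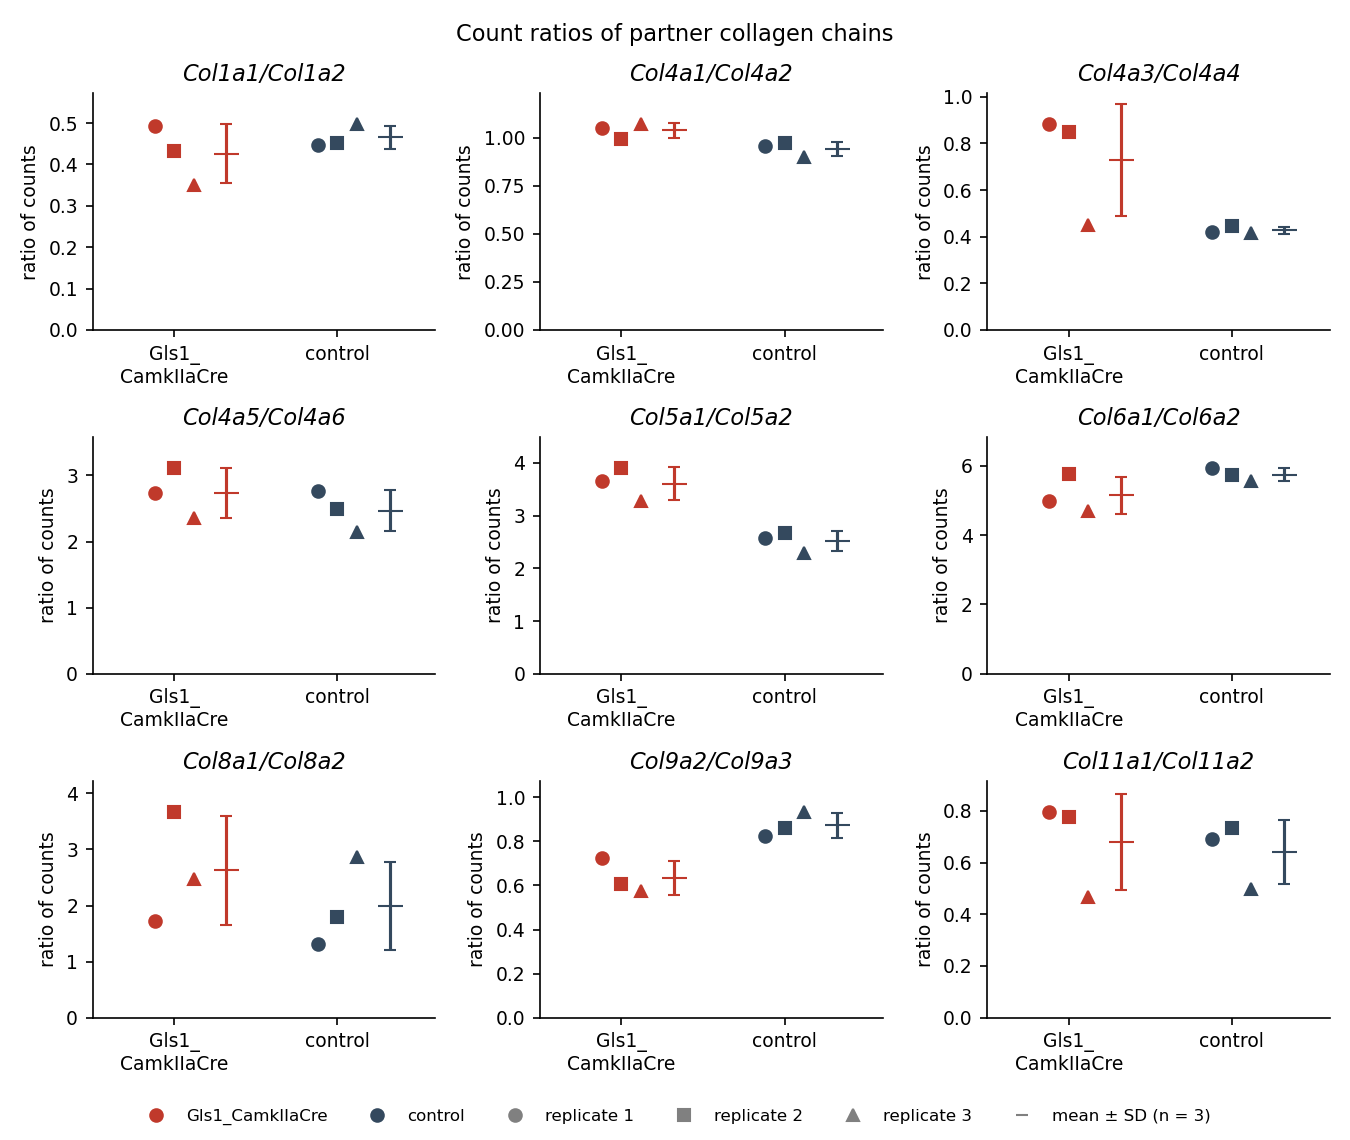
Ratio of raw counts of 9 pairs of partner chains (y axis, from 0) in each library, with mean and SD (n = 3 each), Gls1_CamkIIaCre left of control. The groups are apart for Col4a1/Col4a2, Col4a3/Col4a4, Col5a1/Col5a2 and Col9a2/Col9a3, and overlap for the other 5 pairs.

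Genes that make, bind and degrade collagen were followed in 4 lists of 84 genes, of which 76 were tested, 10 fell and 1 rose. That is 14.5% called, against 8.24% of all tested genes, 4.29% lower and 3.95% higher. With single libraries left out, between 4 and 9 were called, fewest without Gls1_CamkIIaCre replicate 2, as over all genes (2.85%). Of 25 tested genes of collagen modification, export and cross-linking, 3 fell and 1 rose (16% called). Pcolce, which enhances removal of the C-terminal propeptide of fibrillar procollagens, had 4.93, 4.57 and 4.06 CPM in Gls1_CamkIIaCre cortex and 7.71, 7.65 and 7.59 CPM in control cortex. The groups lay far apart (log2 fold change -0.76 ± 0.14 SE, edgeR adjusted p = 0.00222). Crtap, part of the prolyl 3-hydroxylation complex, had 3.16, 3.68 and 3.43 CPM in Gls1_CamkIIaCre cortex and 5.31, 4.72 and 5.44 CPM in control cortex (log2 fold change -0.59, edgeR adjusted p = 0.0322). Crtap lost its call under DESeq2 (adjusted p = 0.0956) and without any one of the 6 libraries (0.0512 to 0.104). Adamts3, a procollagen N-proteinase, had 25.1, 24 and 21.7 CPM in Gls1_CamkIIaCre cortex and 26.3, 32.6 and 27.5 CPM in control cortex (log2 fold change -0.29, edgeR adjusted p = 0.0377). Adamts3 lost its call under DESeq2 (0.0861), limma voom (0.0632) and without Gls1_CamkIIaCre replicate 2 or 3 or control replicate 2 (0.114 to 0.226). Mia3, which loads procollagen into carriers leaving the endoplasmic reticulum, went the other way, with 124, 137 and 131 CPM in Gls1_CamkIIaCre cortex and 112, 110 and 116 CPM in control cortex (log2 fold change 0.22, edgeR adjusted p = 0.00598). Without Gls1_CamkIIaCre replicate 2 its adjusted p was 0.0608, while Pcolce kept its call in 18 of 18 alternatives.

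Of 26 matrix partners, 6 fell and 0 rose (23.1% called, against 8.24% of all tested genes), with a median log2 fold change of -0.16. Fmod, a leucine-rich proteoglycan that coats collagen fibrils, had 19, 19.6 and 17.3 CPM in Gls1_CamkIIaCre cortex and 26.7, 27.7 and 26.4 CPM in control cortex, without overlap (log2 fold change -0.53 ± 0.07 SE, edgeR adjusted p = 0.000326). Lum, Ogn and Dcn of the same family had log2 fold changes of -0.64, -0.44 and -0.40 (edgeR adjusted p of 0.0235, 0.0275 and 0.0118). Bgn and Prelp, also of that family, had log2 fold changes of -0.21 and -0.20 and were not called. Lum lost its call under DESeq2 (adjusted p = 0.0667) and without Gls1_CamkIIaCre replicate 2 or 3 or control replicate 1 or 2 (adjusted p between 0.0616 and 0.0972). Ogn lost it without any library other than control replicate 3 (0.0578 to 0.154), and Dcn without Gls1_CamkIIaCre replicate 2 or control replicate 2 or 3 (0.0508 to 0.063). Sparc, a collagen-binding glycoprotein, had 161, 147 and 146 CPM in Gls1_CamkIIaCre cortex and 179, 177 and 174 CPM in control cortex (log2 fold change -0.22, edgeR adjusted p = 0.00385). Fbln1, a glycoprotein of basement membranes and elastic fibres, had a log2 fold change of -0.41 (edgeR adjusted p = 0.039). Fbln1 lost its call under DESeq2 (0.11), limma voom (0.0551) and without any library other than control replicate 1 (0.0563 to 0.187). Fmod, Sparc and Timp3 kept their calls in 18 of 18 alternatives. Of 15 tested genes of matrix degradation, Timp3, a matrix-bound inhibitor of metalloproteinases, alone was called, 6.67% against 8.24% of all tested genes. Timp3 had 135, 130 and 125 CPM in Gls1_CamkIIaCre cortex and 159, 178 and 150 CPM in control cortex (log2 fold change -0.32, edgeR adjusted p = 0.00163). Of 10 tested collagen receptors, 0 were called by edgeR, DESeq2 or limma voom, with 4, 2 and 4 at an unadjusted p under 0.05.

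Of the marker lists for cells that can make collagen, the fibroblast and mural sums were lower without overlap, and the endothelial and choroid plexus sums overlapped. Markers of meningeal and perivascular fibroblasts summed to 145, 138 and 122 CPM in Gls1_CamkIIaCre cortex and 156, 176 and 148 CPM in control cortex. All 10 had negative log2 fold changes (median -0.32), and 4 were called, of which Dcn and Lum are also in the matrix partner list. Over all tested genes, 4.29% were called lower, a share to set beside each count here. Mural cell markers summed to 266, 244 and 254 CPM in Gls1_CamkIIaCre cortex and 306, 321 and 280 CPM in control cortex, and 5 of 8 were called lower. The smooth muscle genes Acta2, Tagln and Myh11 fell most (log2 fold change -0.71, -0.72 and -0.62), and Pdgfrb and Vtn fell less (-0.35 and -0.28). Rgs5, Abcc9 and Kcnj8 were not called (-0.10, -0.18 and -0.32). Rgs5 was the largest part of the sum, with 136, 136 and 137 CPM in Gls1_CamkIIaCre cortex and 150, 151 and 137 CPM in control cortex. Endothelial markers summed to 196, 184 and 191 CPM in Gls1_CamkIIaCre cortex and 203, 212 and 191 CPM in control cortex, and 1 of 8, Cldn5, was called lower. Choroid plexus markers summed to 8.89, 6.3 and 5.59 CPM in Gls1_CamkIIaCre cortex and 8.98, 11.2 and 8.45 CPM in control cortex, and 0 of 4 tested were called by edgeR, DESeq2 or limma voom (1, 1 and 2 at an unadjusted p under 0.05). No marker was at 0 in every library.

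Divided by the summed fibroblast markers of the same library, Col1a1 and Col1a2 together gave 0.162, 0.16 and 0.165 in Gls1_CamkIIaCre cortex and 0.183, 0.167 and 0.255 in control cortex. The multiplexins on the same scale gave 0.0539, 0.0498 and 0.055 in Gls1_CamkIIaCre cortex and 0.0721, 0.061 and 0.0778 in control cortex. Both stayed apart, though for type I by a narrow margin. Col4a1 and Col4a2 together overlapped, at 0.609, 0.642 and 0.673 in Gls1_CamkIIaCre cortex and 0.629, 0.514 and 0.711 in control cortex. Igf2 alone gave 67.3, 66.7 and 58.7 CPM of the fibroblast sum in Gls1_CamkIIaCre cortex and 68.1, 79.5 and 59.4 CPM in control cortex. It was not called (log2 fold change -0.10, edgeR adjusted p = 0.648), and every other fibroblast marker had a more negative log2 fold change. The ratios to this sum lean on Igf2, so they do not show whether type I or the multiplexins fell further than the other fibroblast markers. Divided by mural markers, Col4a1 and Col4a2 together gave 0.332, 0.362 and 0.322 in Gls1_CamkIIaCre cortex and 0.322, 0.282 and 0.375 in control cortex. Over endothelial markers they gave 0.451, 0.479 and 0.428, and 0.484, 0.426 and 0.552, in the same order of groups. The groups overlapped on both scales. Type I and the multiplexins stayed apart on both, type I over mural markers narrowly (0.09 against 0.0918 at the nearest libraries). The mural sum leans on Rgs5 (log2 fold change -0.10), while Acta2, Tagln and Myh11 had -0.71, -0.72 and -0.62. Flt1 (-0.00081) was the largest part of the endothelial sum. Each of these type I and multiplexin chains had itself been called lower. The ratios therefore do not show whether these chains fell further than mural or endothelial markers in general. All these ratios were chosen after the values were seen and were not tested.

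**Figure D5:**
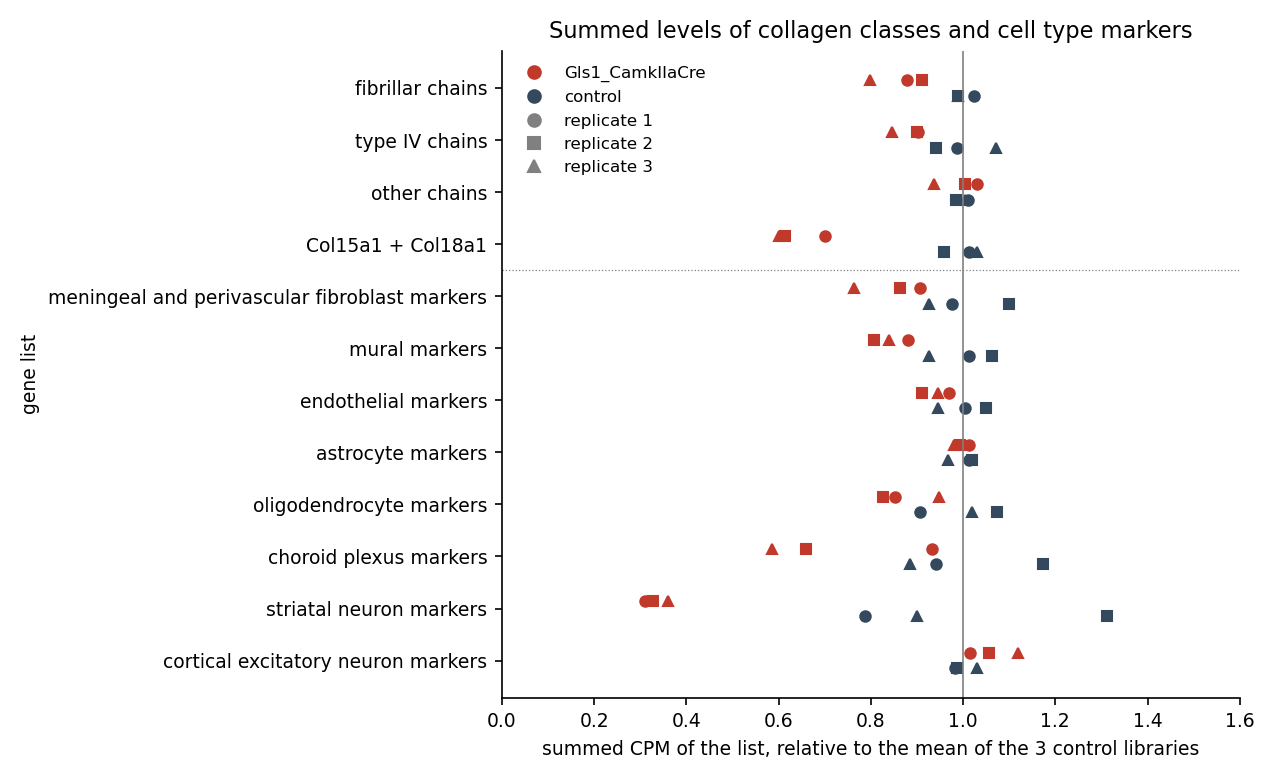
Summed CPM of collagen classes and of cell type marker lists in each library, relative to the mean of the 3 control libraries (x axis, from 0), Gls1_CamkIIaCre drawn above control on each line. Fibrillar and type IV sums are lower in every Gls1_CamkIIaCre library than in any control library, as are fibroblast, mural and striatal marker sums, while the sum of the other chains overlaps.

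Among the other cell types, 3 of 6 oligodendrocyte, 2 of 5 astrocyte, 2 of 5 interneuron, 2 of 5 blood and 5 of 6 interferon-induced genes were called lower and none higher. Over all tested genes, 4.29% were called lower and 3.95% higher. Of 4 microglial and 5 cortical excitatory neuron markers, 0 were called by edgeR (2 and 3 at an unadjusted p under 0.05), while DESeq2 and limma voom each called 1 excitatory neuron marker higher. Their part in the collagen results was not tested.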

How the data were processed

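RNA was measured in 6 libraries of mouse prefrontal cortex. Per the labels' protocols, libraries were prepared with a SMARTER mRNA-Seq kit from TRIzol-extracted total RNA. Read counts for each gene, unnormalised, were deposited together with a matching FPKM table made by the authors. Per the submitters' processing notes, GRCm38 (mm10) was the genome. Not given in the sources used here are the aligner, the counter, its use of strand and the FPKM tool. Both tables cover the 6 samples, and no other sample column was present.

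The test was that of edgeR 4.0.16 under R 4.3.3 on the counts (TMM, filterByExpr, robust quasi-likelihood fit, no covariate), with p-values adjusted by Benjamini-Hochberg over 14440 genes. FPKM entered only as an alternative and for levels between chains. Alternatives were DESeq2 1.42.0, limma voom (limma 3.58.1), other size factors, no filter or a mean of at least 50 counts, log2(FPKM + 1) and log2(FPKM + 0.1), a fit without the robust option, a threshold of 0.1, a replicate block and leaving out each library. A correction for GC content and the length of transcripts was added after seeing the data, with values for 96.7% of tested genes. Coordinates and promoters came from RefSeq GRCm38.p6.

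The labels treat the samples as separate mice. Within each group, no pair of libraries was a duplicate (chi-square per degree of freedom 2.27 to 4.16). On simulated counts for this comparison over 14440 genes, 48% of 1.2-fold, 78% of 1.5-fold, 92% of 2-fold and 94% of 3-fold changes were recovered, with 18 false calls among 14240 unchanged genes. The simulated counts followed the fit's own means and dispersions, and the changed genes were drawn from all levels. These rates therefore need not hold for the collagen chains.

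Chains named with values were those called and, per class, the 4 of smallest p and the 3 of highest mean FPKM, plus all type IV chains. Other chains, among them Col6a2, Col6a3, Col6a6, Col9a3, Col10a1, Col17a1 and Col23a1, were named after their values were seen, as were Bgn and Prelp. Called companion genes were named. Members, companion lists and marker lists were chosen with earlier results of these data known, so they are described by counts and medians, with no list test. The check of the targeted gene is not reported here.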

Additional observations from a re-analysis of the deposited data

How the results depend on the processing

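Every called chain was lower under every alternative run. Col1a2 kept its call in 18 of 18 alternatives, Col18a1 in 16, Col1a1 in 13, Col4a2 in 12, Col15a1 in 11, Col9a2 in 10 and Col5a2 in 7. In place of 7 chains, 4 were called under DESeq2, 3 under log2(FPKM + 1), 3 under log2(FPKM + 0.1), and between 2 and 5 with a library left out (2 without Gls1_CamkIIaCre replicate 2, 3 without Gls1_CamkIIaCre replicate 3, control replicate 1 or control replicate 3, 4 without control replicate 2). These were among the 7, except that Col11a2 was a further call without Gls1_CamkIIaCre replicate 3. In place of 11 companion genes, 7 were called under DESeq2 and between 4 and 9 with a library left out (4 without Gls1_CamkIIaCre replicate 2, 7 without Gls1_CamkIIaCre replicate 3, 5 without control replicate 2). Bgn, Adgrg1, Lamc1 and Mmp16, outside the 11, were each called without one library. Adamts3, Crtap, Fbln1 and Ogn lost their calls after the length and GC correction (edgeR adjusted p 0.0566 to 0.0672). Adamts3, Mia3 and Ogn lost theirs on both FPKM scales (limma adjusted p 0.0795 to 0.108). Collagen transcripts were longer and richer in GC than those of all tested genes (medians 6048 against 3496 bases, 55.2% against 49.8%). That correction left 6 of the 7 chains called, and 2.55% of all genes lower and 3.3% higher. FPKM were lower as a whole in Gls1_CamkIIaCre libraries, and log2(FPKM + 1) called 550 genes lower and 122 higher. The cause of these changes was not tested. Chains with log2 fold changes near 0 turned sign, and none of them was called. Col25a1 gave -0.0053 with upper-quartile factors, -0.0049 and -0.0056 with log2(FPKM + 1) and log2(FPKM + 0.1), -0.013 after the length and GC correction, and -0.016 and -0.013 without Gls1_CamkIIaCre replicate 2 and control replicate 1. Col4a4 gave -0.00043 with log2(FPKM + 1) and -0.076 without Gls1_CamkIIaCre replicate 3. Col19a1 gave 0.0066 and 0.074 without Gls1_CamkIIaCre replicate 2 and control replicate 3. With single libraries left out, values ran from -0.016 to 0.049 for Col25a1, -0.076 to 0.37 for Col4a4, -0.077 to 0.074 for Col19a1 and -0.08 to 0.067 for Col6a1. Col6a1 gave 0.067 and 0.0056 without Gls1_CamkIIaCre replicate 3 and control replicate 1. The labels state no block, and the replicate numbers were not taken as pairs. Same-numbered libraries deviated together with correlations of 0.139, -0.026 and 0.14. A replicate block left 7 collagen calls, gave 15 companion calls, and called 1758 of all genes against 1190 without it. Variation shared by same-numbered libraries is therefore not excluded. Chains under about 100 counts in all, such as Col4a3, Col6a6 and Col17a1, have intervals too wide to show a change of the size seen in Col1a2.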
